A study of Mus musculus with 27 samples.

Results

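The genes described here are 10 transcripts by which GABA-releasing interneurons of the mouse cortex are usually recognised: Gad1, Gad2, Slc32a1, Sst, Npy, Vip, Cck, Pvalb, Lamp5 and Reln. They were chosen by gene symbol, are 10 of the 22340 rows of the count table, and all 10 passed the filter on low counts that left 18087 rows. The table holds RNA-seq of cortex from wildtype C57BL6 mice aged 7 to 8 weeks. In the occluded animals a suture closed the right middle cerebral artery for 35 min, with the common carotid artery ligated, and blood flow was then restored. Cortex of the occluded (ipsilateral) and of the opposite (contralateral) hemisphere was taken 3, 6, 12 and 24 h after reperfusion. Sham animals were anesthetized and had the arteries exposed without a filament. Each of the 9 groups (sham, 4 contralateral, 4 ipsilateral) has 3 libraries, and replicate numbers 1, 2 and 3 come from separate days of surgery. The labels do not say whether the 2 hemispheres of a time and number come from the same animal. For sham animals neither the hemisphere nor the interval between surgery and dissection is stated. Values for 3 libraries are given below in the order of replicates 1, 2 and 3.

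Cortical interneurons use GABA as their transmitter. Gad1 and Gad2 encode the glutamate decarboxylases that make GABA, and Slc32a1 the transporter that loads it into synaptic vesicles, so these genes are shared by nearly all interneuron classes. The other genes divide the classes: Pvalb (parvalbumin, a calcium-binding protein) marks fast-spiking basket and chandelier cells, Sst (somatostatin) marks cells that inhibit dendrites, and Vip marks cells that mostly inhibit other interneurons. Npy, Lamp5 and Reln are found in neurogliaform cells, and Npy also in many Sst cells. Several are not restricted to interneurons: Cck and Lamp5 are also expressed by excitatory neurons of the cortex, Reln by Cajal-Retzius cells of the outermost layer, and Gad1, Gad2 and Slc32a1 by the projection neurons of the striatum below the cortex.

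Lamp5, Cck, Pvalb and Vip fell in ipsilateral against contralateral cortex at 1 or more times. None of the 10 rose in any comparison of the main fit. The main fit took all 27 libraries without a block for the day of surgery. In it Vip passed only at 12 h, and at no time against sham. That call was kept under 10 of 14 alternative settings, and contralateral Vip stood above sham at 12 h by estimate. With a replicate block within each time, Vip also passed between hemispheres at 6 and 24 h. Lamp5 fell furthest, to a level 2.26-fold lower than in contralateral cortex at 24 h. Against sham its log2 fold change at 24 h was -0.82, with contralateral Lamp5 above sham by estimate. For the 6 others (the GABA genes Gad1, Gad2 and Slc32a1, the peptides Sst and Npy, and Reln) no comparison between groups passed an adjusted p of 0.05 in the main fit, edgeR's quasi-likelihood test across all 18087 genes. Under some alternative settings Gad1, Sst and Reln did pass, as given below for each gene. In bulk RNA, fewer cells of a type and less RNA per cell cannot be told apart.

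**Figure D1:**
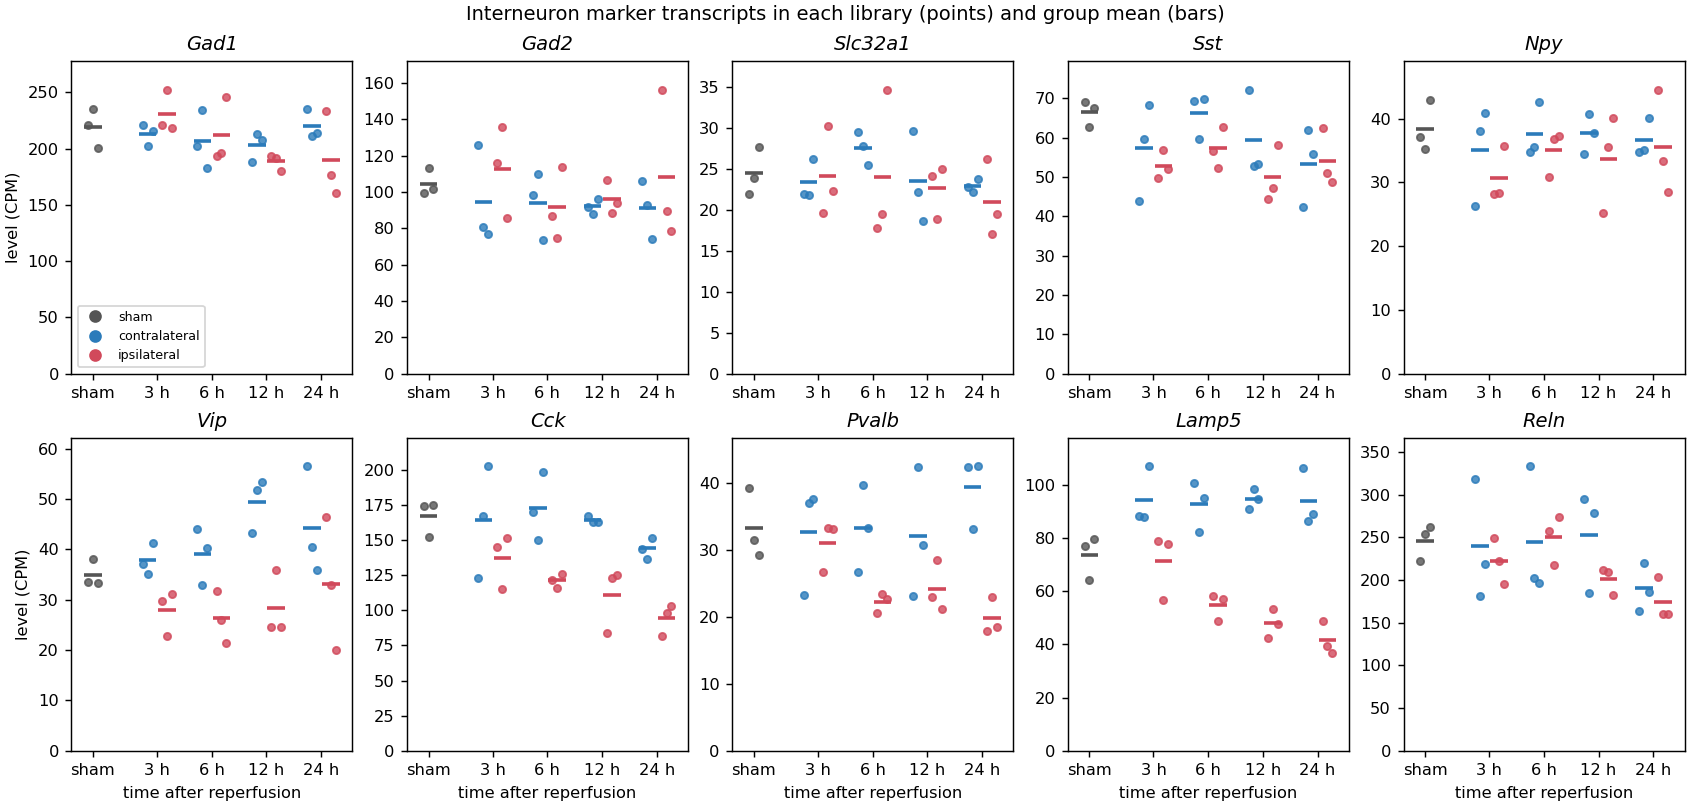
Level of each gene in CPM (counts scaled to a fixed library total, vertical axes from 0) in sham libraries and at each time after reperfusion (horizontal axes); points are libraries, with replicates 1 to 3 from left to right, and bars are group means. Ipsilateral Lamp5 lies below contralateral Lamp5 in every library from 3 h on and reaches 36.7 to 48.8 CPM at 24 h, while the ipsilateral and contralateral libraries of Gad1, Gad2 and Slc32a1 overlap at all 4 times.

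Library totals ran from 26505996 to 48830897 counts. Mitochondrial ribosomal RNA took 24.4% to 40.4% of the counts, most in replicate 1 of the ipsilateral 24 h group, followed by contralateral 3 h replicate 1 at 36.7%. The markers of cortical excitatory neurons were present in all libraries, with a summed level of 1939 to 3439 CPM over 14 genes. Markers of tissue next to the cortex were present too: 12 tested markers of striatal projection neurons summed to 290.6 to 942 CPM (of 14 listed, Six3 did not pass the filter and Drd1 was not analysed here), and 9 choroid plexus markers to 4.68 to 735 CPM. Both were highest in ipsilateral 3 h replicate 1.

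In sham cortex, levels per length of exon union (RPKM, with lengths from GENCODE) ran over a wide range. The order of the genes depends on these lengths, which run from 566 bases for Npy to 23738 for Reln. Cck was the most abundant at 128 ± 9.88 RPKM (SD, n = 3), followed by Sst at 92.2 ± 4.50 and Npy at 67.8 ± 7.07. Pvalb (32.0 ± 5.09), Gad1 (28.7 ± 2.27) and Lamp5 (25.1 ± 2.80) came next, and in this order the libraries of each overlapped those of its neighbour. Gad2 stood at 17.8 ± 1.28 RPKM, and the lowest were Reln (10.4 ± 0.886), Vip (10.3 ± 0.798) and Slc32a1 (8.77 ± 1.06), again overlapping neighbour with neighbour. Over all 27 libraries Cck was above Sst in 26 and Gad2 above Reln in 27, whereas Pvalb was above Gad1 in 13.

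Of the genes for making and loading GABA, Gad1 (chr2:70553072-70602014, plus strand, mm10) was at 221, 235 and 200.4 CPM in sham libraries. At 24 h it was at 235, 211 and 213 CPM in contralateral cortex. Ipsilateral cortex held 233, 177 and 160.4 CPM at that time. Only replicate 1 of the ipsilateral group lay within the contralateral range. The log2 fold change at 24 h was -0.21 (SE 0.12, 95% interval -0.46 to 0.04, adjusted p = 0.24 with edgeR). Without that library, which also had the highest mitochondrial ribosomal share, the estimate was -0.39 with an edgeR adjusted p of 0.032, and against sham -0.38 with 0.0317. Leaving out the 2 libraries with most mitochondrial ribosomal RNA gave -0.38 at 24 h (edgeR adjusted p = 0.0149), and -0.38 against sham (0.0152). At 3, 6 and 12 h the estimates against contralateral cortex were 0.12, 0.04 and -0.11.

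Gad2 (chr2:22622205-22693874, plus strand) was at 99.1, 113 and 101 CPM in sham libraries. Its ipsilateral 24 h libraries held 156, 89.3 and 78.6 CPM, against 106, 92.7 and 74.3 CPM in the contralateral ones. The highest level of all 27 libraries was thus in ipsilateral 24 h replicate 1, and the other 2 ipsilateral libraries lay within the contralateral range. The log2 fold changes at 3, 6, 12 and 24 h were 0.25, -0.03, 0.06 and 0.25, and the 95% interval at 24 h ran from -0.23 to 0.72.

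Slc32a1 (chr2:158610767-158615748, plus strand) was the least abundant of the 10 per length. It was at 21.9, 23.9 and 27.7 CPM in sham, and at 24 h at 22.8, 22.3 and 23.8 CPM in contralateral and 26.2, 17.1 and 19.5 CPM in ipsilateral cortex. The ipsilateral libraries lay on both sides of the contralateral ones. At 6 h a difference between libraries of 1 group was larger than that between groups: the ipsilateral libraries held 17.8, 19.5 and 34.7 CPM. Its log2 fold changes against contralateral cortex lay between -0.20 and 0.05 over the 4 times, with a 95% interval at 24 h of -0.56 to 0.29. An antisense gene, Gm14205, shares 697 exon bases with Slc32a1, and since the strand setting of the counting is not given in the sources used here, reads from the pair cannot be told apart.

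The level of Gad2 went with those of striatal markers, and the levels of Gad1, Slc32a1 and Reln did so less closely. For this the mean log2 level of the striatal markers was taken without Tac1 and Penk. Over the 27 libraries, the log2 level of Gad2 had a Pearson correlation of 0.794 with this mean, and 0.815 after the group means were taken out. The same correlation was 0.445 for Gad1 (0.492 within groups), 0.421 for Reln (0.523) and 0.392 for Slc32a1 (0.365). It was of the opposite sign for Cck (-0.19, and -0.59 within groups), Pvalb (-0.20, -0.51) and Npy (-0.36, -0.42), and near 0 for Lamp5 (-0.04, -0.09). These values are descriptions across libraries that share their groups. The striatal markers themselves passed the test at no time between ipsilateral and contralateral cortex (0 of 12 at each of 4 times), but their summed level ran from 290.6 to 545 CPM in ipsilateral 24 h libraries and from 387.5 to 942 CPM at 3 h. With the mean striatal level, again without Tac1 and Penk, as a covariate, which was added after seeing the data, none of Gad1, Gad2, Slc32a1 and Reln passed between ipsilateral and contralateral or sham cortex at any time. None of these genes had passed in the main fit either, so the covariate changed no call of theirs.

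**Figure D2:**
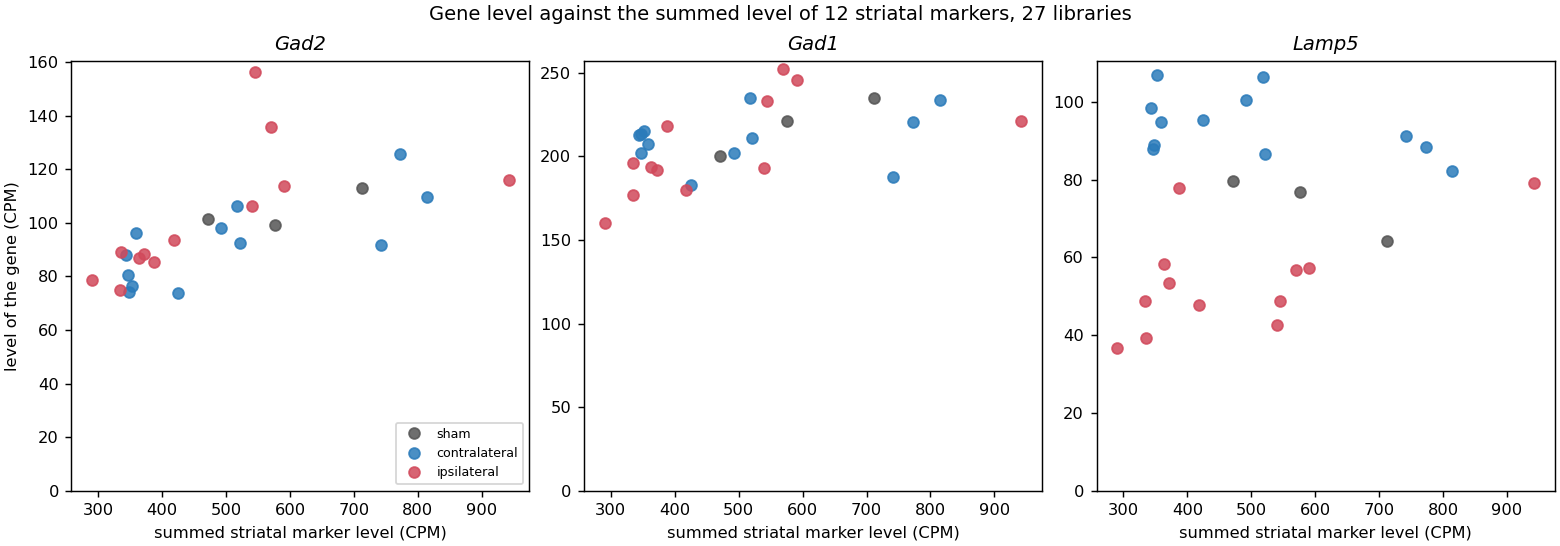
Level of Gad2, Gad1 and Lamp5 (vertical axes, CPM from 0) against the summed level of 12 striatal markers (horizontal axes, CPM) in 27 libraries, coloured by sham, contralateral and ipsilateral origin. Gad2 rises with the striatal sum over its range of 290.6 to 942 CPM, whereas Lamp5 separates by hemisphere at any striatal level.

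Among the peptide genes, Cck (cholecystokinin, chr9:121489824-121495694, minus strand) fell from 6 h on. Sham libraries held 174, 152 and 175 CPM. At 6 h contralateral cortex held 170, 150 and 199 CPM and ipsilateral cortex 122, 116 and 126 CPM. At 24 h these were 144, 136 and 152 CPM against 82.0, 98.0 and 103 CPM. In both cases all 3 ipsilateral libraries lay below all 3 contralateral ones, as they did at 12 h, and at 3 h they overlapped. The log2 fold change was -0.26 at 3 h (adjusted p = 0.549), -0.51 at 6 h (SE 0.15, adjusted p = 0.0321), -0.57 at 12 h (SE 0.15, adjusted p = 0.0121) and -0.61 at 24 h (SE 0.15, adjusted p = 0.00543), all with edgeR. The 6 h call did not stand when any of 4 libraries was left out: contralateral replicate 1 (edgeR adjusted p = 0.0708), contralateral replicate 3 (0.186), ipsilateral replicate 1 (0.0868) or ipsilateral replicate 2 (0.146). The 12 h call was lost without ipsilateral replicate 1, the lowest library at 84.1 CPM, where the estimate was -0.40 (edgeR adjusted p = 0.137). At 24 h Cck passed under each of 14 alternative settings. Against sham it was lower at 12 h (-0.59, edgeR adjusted p = 0.0107, but 0.124 without ipsilateral replicate 1) and at 24 h (-0.82, SE 0.15, edgeR adjusted p = 0.000321), a level 1.77-fold lower.

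Vip (vasoactive intestinal peptide, chr10:5639218-5647617, plus strand) was at 33.5, 38.1 and 33.3 CPM in sham. At 12 h it was at 43.3, 51.8 and 53.3 CPM in contralateral and 24.6, 36.0 and 24.5 CPM in ipsilateral cortex. The 2 groups did not overlap, and the contralateral libraries also lay above all sham libraries. The log2 fold change between hemispheres at 12 h was -0.80 (SE 0.22, edgeR adjusted p = 0.018), a level 1.75-fold lower. It missed the threshold without contralateral replicate 2 (edgeR adjusted p = 0.0592) or 3 (0.0656), or without ipsilateral replicate 1 (0.115) or 3 (0.0861). Against sham the ipsilateral difference at 12 h was -0.30 (edgeR adjusted p = 0.427), and that of the contralateral side was 0.50 (edgeR adjusted p = 0.588). With only the groups compared, contralateral Vip was higher than sham at 12 h (0.50, edgeR adjusted p = 0.0241).

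At the other times Vip was lower by estimate and did not pass. The log2 fold changes against contralateral cortex were -0.44 at 3 h, -0.56 at 6 h and -0.42 at 24 h (edgeR adjusted p = 0.484, 0.122 and 0.191). All ipsilateral libraries lay below all contralateral ones at 3 and 6 h. At 24 h the ipsilateral libraries spread most, with 46.5, 32.9 and 20.1 CPM. Without ipsilateral replicate 1 the 24 h estimate was -0.75 (edgeR adjusted p = 0.0212). With a replicate block within each time, the edgeR adjusted p was 0.0144 at 6 h and 0.0217 at 24 h. With only the groups compared it was 0.0189 at 6 h. Without the 2 libraries with most mitochondrial ribosomal RNA it was 0.0279 at 24 h.

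Sst (somatostatin, chr16:23889573-23890958, minus strand) was at 69.0, 62.8 and 67.5 CPM in sham libraries. At 24 h it was at 42.4, 62.1 and 55.8 CPM in contralateral and 62.5, 51.2 and 48.8 CPM in ipsilateral cortex. The 2 hemispheres overlapped at all 4 times, and at 24 h the log2 fold change was 0.02 with a 95% interval of -0.30 to 0.34. Both hemispheres lay below all sham libraries at 24 h, by -0.30 on the ipsilateral side (edgeR adjusted p = 0.173) and -0.31 on the contralateral side (edgeR adjusted p = 0.771). The estimate furthest from 0 was ipsilateral against sham at 12 h, -0.41 (95% interval -0.73 to -0.10, edgeR adjusted p = 0.0868). With only the groups compared, Sst passed against sham at 12 h (-0.40, edgeR adjusted p = 0.0157). When the 2 libraries with most mitochondrial ribosomal RNA were left out, Sst passed against sham at 12 h (edgeR adjusted p = 0.0291) and at 24 h (0.0393).

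Npy (neuropeptide Y, chr6:49822710-49829507, plus strand) was at 37.1, 35.2 and 42.8 CPM in sham. At 24 h it was at 34.8, 35.1 and 40.0 CPM in contralateral and 44.6, 33.4 and 28.5 CPM in ipsilateral cortex, where the highest and the lowest of the 6 libraries were both ipsilateral. The hemispheres overlapped at every time. The log2 fold changes between hemispheres were -0.19, -0.10, -0.17 and -0.05 at 3, 6, 12 and 24 h, with a 95% interval at 24 h of -0.39 to 0.30. Npy passed under none of the alternative settings.

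The promoters of the peptide genes are shown because peptide genes such as Sst and Vip are textbook targets of the activity-driven factor CREB, and a list of activity-regulated genes was also counted in these samples. The RefSeq promoter windows (GRCm38.p6, 250 bases before to 50 after the start site, 12 windows for the 10 genes) were searched on both strands for the full cAMP response element TGACGTCA, for its core TGACG, which the full element contains on both strands, and for the AP-1 site TGANTCA. TGACGTCA was found in 1 gene, Sst, and in 1.79% of all 32851 promoter windows. TGACG was found in 4 genes, Sst, Vip, Cck and Gad2, and in 20.8% of all windows. TGANTCA was found in none of the 10 and in 7.81% of all windows. The 30 bases around each match follow, 5′ to 3′ on the strand of the gene, with the match in capitals (CGTCA is TGACG on the opposite strand).
Sst: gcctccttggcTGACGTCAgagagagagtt
Vip: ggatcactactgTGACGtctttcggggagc
Cck: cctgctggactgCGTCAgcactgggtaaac
Gad2: ccatttcccttcCGTCActctctcatctcc
They lie at chr16:23890874-23890903 (minus strand) for Sst, chr10:5639127-5639156 (plus strand) for Vip, chr9:121495724-121495753 (minus strand) for Cck and chr2:22622282-22622311 (plus strand) for Gad2. The first capital stands at -48, -79, -47 and -33 from the RefSeq start site, in that order. A match describes these letters and is not a binding site shown in these samples.

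Of 14 genes known to be switched on by activity, 12 were higher in ipsilateral than in contralateral cortex at 6 h, among them the transcription factors Egr1 (log2 fold change 2.40, edgeR adjusted p = 6.72e-06) and Npas4 (4.15, adjusted p = 0.000128) and the synaptic gene Arc (2.86, adjusted p = 7.9e-05). At 3, 12 and 24 h, 4, 4 and 2 of the 14 were higher in this comparison and none lower. Of all genes 0.232%, 5.85%, 7.94% and 9.74% were higher at 3, 6, 12 and 24 h. The contralateral side itself lay below sham: 2 of the 14 were lower there at 6 h (Egr1, -1.67, edgeR adjusted p = 0.0225, and Arc, -2.11, adjusted p = 0.0414) and 4 at 12 h, with list medians of -0.69, -0.89, -1.23 and -0.42 at 3, 6, 12 and 24 h. Contralateral against sham, 0.0332% and 0.238% of all genes passed in either direction at 6 and 12 h. Ipsilateral against sham, 0, 4, 1 and 1 of the 14 were higher and 0, 0, 2 and 0 lower at the 4 times. In that comparison 0.243% and 6.11% of all genes passed in either direction at 3 and 6 h. At 12 and 24 h 1864 and 4008 of 18087 genes passed in either direction, and 3.72% and 10.9% were lower. At 6 h Npas4 passed against sham (2.08, edgeR adjusted p = 0.0188), whereas Egr1 stood at 0.73 (adjusted p = 0.0988) and Arc at 0.75 (adjusted p = 0.228). Between hemispheres at 6 h the genes with a TGACG core stood at -0.21 (Sst), -0.56 (Vip), -0.51 (Cck) and -0.03 (Gad2), and of these Cck passed.

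Pvalb (chr15:78191114-78206400, minus strand) fell at 24 h. Its sham libraries held 39.3, 31.5 and 29.2 CPM. At 24 h the contralateral libraries held 42.5, 33.2 and 42.5 CPM. The ipsilateral libraries held 17.8, 23.1 and 18.5 CPM, all below every contralateral and every sham library. The log2 fold change between hemispheres was -0.99 (SE 0.20, edgeR adjusted p = 0.000912), a level 1.99-fold lower, and it passed under each of 14 alternative settings. Against sham it was -0.75 (SE 0.20, edgeR adjusted p = 0.00697), but 0.052 without sham replicate 1, the highest sham library.

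Earlier, Pvalb was at 26.7, 33.4 and 33.1 CPM in ipsilateral 3 h libraries, inside the contralateral range of 23.3 to 37.6 CPM, and the estimate was -0.07. At 6 h the ipsilateral libraries held 20.7, 23.4 and 22.6 CPM, below the contralateral 26.7, 39.8 and 33.3 CPM. That difference of -0.58 did not pass in the fit without a block (edgeR adjusted p = 0.0634). It passed with the surgery day as a replicate block (edgeR adjusted p = 0.0366, and 0.0193 with a block within each time). It also passed with DESeq2 (adjusted p = 0.0424) and, in edgeR, with only the groups compared (0.00832), with the striatal covariate (0.0155), without the 2 libraries with most mitochondrial ribosomal RNA (0.0386) and without contralateral replicate 1 (0.0429). At 12 h the hemispheres overlapped (-0.41, edgeR adjusted p = 0.177). Against sham at 12 h, Pvalb did not pass in the main fit. It passed there with only the groups compared (-0.44, edgeR adjusted p = 0.0261) and with the striatal covariate (-0.54, edgeR adjusted p = 0.0438).

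Lamp5 (a lysosome-associated membrane protein of neurons, chr2:136052239-136069917, plus strand) had the most regular course. Sham libraries held 77.0, 64.3 and 79.7 CPM. At 3 h the contralateral libraries held 88.5, 88.0 and 107.0 CPM and the ipsilateral ones 79.1, 56.8 and 78.0 CPM. At 6 h they held 100.6, 82.4 and 95.3 CPM against 58.2, 48.9 and 57.3 CPM. The ipsilateral libraries lay below the contralateral ones at both times, and from 6 h on also below every sham library.

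At 12 h the contralateral Lamp5 levels were 91.2, 98.4 and 94.9 CPM and the ipsilateral levels 42.6, 53.4 and 47.7 CPM. At 24 h they were 106.5, 86.6 and 88.9 CPM against 48.8, 39.2 and 36.7 CPM. The gap between the hemispheres was thus wider than the spread within either of them. The log2 fold change was -0.41 at 3 h (SE 0.14, edgeR adjusted p = 0.253), -0.76 at 6 h (SE 0.14, adjusted p = 0.000616), -0.98 at 12 h (SE 0.14, adjusted p = 2.23e-05) and -1.18 at 24 h (SE 0.14, adjusted p = 2.5e-06). The 6, 12 and 24 h calls stood under each of 14 alternative settings.

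Contralateral Lamp5 stood above sham by estimate, without passing the test. The 12 contralateral libraries held 82.4 to 107 CPM, all above the 3 sham libraries at 64.3 to 79.7 CPM. The log2 differences from sham were 0.36, 0.33, 0.36 and 0.35 at 3, 6, 12 and 24 h. None passed with edgeR over all genes (unadjusted p = 0.0133, 0.0206, 0.012 and 0.0149; adjusted p = 0.504, 1, 0.438 and 0.571), and the 4 comparisons share the same 3 sham libraries. Against sham, ipsilateral Lamp5 stood at -0.05 at 3 h and -0.43 at 6 h (edgeR adjusted p = 0.0592, and 0.0379 with the surgery day as a replicate block). It was lower at 12 h by -0.62 (SE 0.14, edgeR adjusted p = 0.00384) and at 24 h by -0.82 (SE 0.14, edgeR adjusted p = 0.000124), a level 1.77-fold lower, as against 2.26-fold relative to the contralateral side.

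Reln (reelin, an extracellular glycoprotein that guides neuronal layering, chr5:21884454-22344702, minus strand) varied widely within groups. Sham libraries held 222, 254 and 262 CPM. At 24 h the contralateral libraries held 164, 220 and 187 CPM and the ipsilateral ones 204, 160 and 161 CPM, all below every sham library on either side. The log2 fold change between hemispheres at 24 h was -0.12 (95% interval -0.53 to 0.29). Ipsilateral against sham was -0.49 (95% interval -0.91 to -0.08, edgeR adjusted p = 0.0799), and with the surgery day as a replicate block the edgeR adjusted p was 0.0402. This difference also passed with only the groups compared (edgeR adjusted p = 0.0104, and 0.0457 at 12 h). Without the 2 libraries with most mitochondrial ribosomal RNA it passed at -0.61 (edgeR adjusted p = 0.0423). Contralateral against sham was -0.37 (edgeR adjusted p = 0.826). Contralateral libraries of replicate 1 were the highest of their groups at 3, 6 and 12 h, at 318.5, 333 and 295 CPM.

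**Figure D3:**
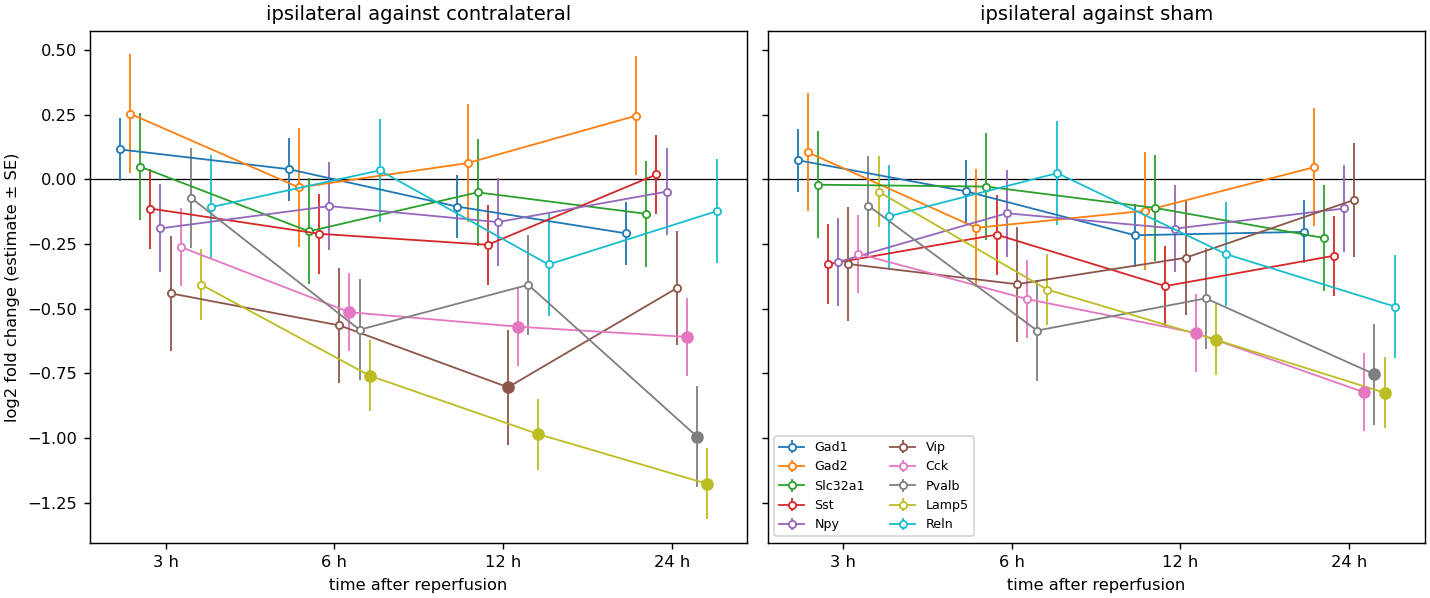
Log2 fold change (vertical axis, edgeR estimate with bars of 1 SE) of the 10 genes at 4 times after reperfusion (horizontal axis), ipsilateral against contralateral on the left and against sham on the right; filled points passed an adjusted p of 0.05 over all genes. Lamp5 goes from -0.41 at 3 h to -1.18 at 24 h against contralateral cortex, and no filled point lies above 0.

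Counted by comparison, ipsilateral against contralateral, 0 of the 10 genes passed at 3 h (0.249% of all genes passed, 0.232% higher and 0.0166% lower), with 1 at an unadjusted p under 0.05 and 0 by DESeq2. At 6 h, 2 genes fell (Cck and Lamp5; 2.14% of all genes fell and 5.85% rose), and at 12 h 3 fell (Vip, Cck and Lamp5; 4.3% of all genes fell and 7.94% rose). At 24 h 3 fell (Cck, Pvalb and Lamp5; 9.36% of all genes fell and 9.74% rose). The median log2 fold change of the 10 was -0.11, -0.21, -0.29 and -0.17 at the 4 times, beside medians over all genes of 0.00098, -0.02, -0.01 and 0.03. All 3 ipsilateral libraries lay below all 3 contralateral ones for 2, 4, 3 and 3 of the 10 genes, beside 5.04%, 15.9%, 15.7% and 17.6% of all genes.

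Against sham, which shares the ipsilateral libraries with the comparison above, 0 genes passed at 3 h (0.243% of all genes; 1 at an unadjusted p under 0.05, 0 by DESeq2) and 0 at 6 h (6.11% of all genes; 3 at an unadjusted p under 0.05). At 6 h Cck, Pvalb and Lamp5 passed with DESeq2 and with the surgery day as a replicate block, 3 genes in each case. At 12 h 2 fell (Cck and Lamp5; 3.72% of all genes) and at 24 h 3 fell (Cck, Pvalb and Lamp5; 10.9% of all genes). The median of the 10 was -0.12, -0.20, -0.30 and -0.26, beside -0.00132, -0.01, -8.976e-05 and 0.03 over all genes. Contralateral against sham, 0 of the 10 passed at any time in the main edgeR fit or with DESeq2 (0.0111%, 0.0332%, 0.238% and 0.111% of all genes), with 1, 1, 2 and 1 at an unadjusted p under 0.05, Lamp5 at each time and Vip at 12 h. These 4 comparisons share the same 3 sham libraries. Percentages of all genes are for the adjusted threshold, and the share at an unadjusted p under 0.05 was not counted.

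Whether the difference between hemispheres itself changed with time was tested in 2 ways. Over all 4 times, 0 of the 10 passed (1.34% of all genes), with an edgeR adjusted p of 0.0905 for Lamp5 and 0.204 for Pvalb, the 2 genes at an unadjusted p under 0.05; DESeq2 called 1, Lamp5. For 24 h minus 3 h, 1 passed (1.71% of all genes in the lower direction): Lamp5, at -0.77 (SE 0.19, edgeR adjusted p = 0.0286). That call was lost when any replicate number was left out (edgeR adjusted p = 0.0942, 0.155 and 0.161 without 1, 2 and 3). Pvalb stood at -0.92 (SE 0.27, edgeR adjusted p = 0.0604, and 0.026 with the surgery day as a replicate block).

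Other genes of interneurons were counted from lists of known members. Of 29 further interneuron subtype genes, none passed at 3 or 6 h and 3 were lower in ipsilateral than in contralateral cortex at each of 12 and 24 h, with none higher. At 12 h 4.3% of all genes were called lower, and the 3 of 29 at 24 h are near the 9.36% called lower in that comparison. They were Id2 (a helix-loop-helix protein of Lamp5 cells; -0.42, edgeR adjusted p = 0.0188), Kcnc2 (a potassium channel of fast-spiking cells; -0.36, adjusted p = 0.0249) and Calb1 (calbindin; -0.56, adjusted p = 0.0477). Id2 also passed the test of differing effects over time (edgeR adjusted p = 0.0409). Its ipsilateral level at 24 h was that of sham (52.4 ± 1.34 against 52.3 ± 2.14 CPM, SD, n = 3), and its contralateral level stood above sham by 0.43 (edgeR adjusted p = 0.267). Kcnc2 and Calb1 were also lower against sham (-0.33 and -0.57, edgeR adjusted p = 0.0343 and 0.0402). The median of the list was 0.02, -0.04, -0.28 and -0.12 at 3, 6, 12 and 24 h. Of 17 transcription factors of the interneuron lineage 1 passed, beside 9.36% of all genes called lower at 24 h. It was Satb1 at 24 h (-0.43, edgeR adjusted p = 0.0351, and 0.0966 against sham), which excitatory neurons also express. Lhx6, the factor of the Sst and Pvalb lineage, named here after its value was seen, stood at -0.16 (edgeR adjusted p = 0.56).

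Glul, the astrocytic enzyme that makes glutamine, a precursor of GABA, was lower in ipsilateral than in contralateral cortex at 12 h (-0.47, edgeR adjusted p = 0.0069) and at 24 h (-0.39, edgeR adjusted p = 0.0184). Against sham it stood at -0.16 and -0.29 (edgeR adjusted p = 0.404 and 0.0685). Of 11 tested genes of other cortical neuropeptides (of 12 listed, Gal was not analysed here), 2 fell at 12 h, Crh (-0.84) and Grp (-1.10), both named after their values were seen. Of all genes 4.3% fell at 12 h. Crh and Grp had low levels, 2.69 ± 0.678 and 1.97 ± 0.306 CPM (SD, n = 3) in ipsilateral 12 h cortex. None of the 11 passed at 3, 6 or 24 h.

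Genes for processing and packing neuropeptides were lower from 6 h on: 0, 2, 6 and 7 of 13 fell at 3, 6, 12 and 24 h, and none rose. Of all genes 0.0166%, 2.14%, 4.3% and 9.36% fell at these times. At 24 h Scg5, the chaperone of the convertase encoded by Pcsk2, was 1.65-fold lower (123 ± 3.01 against 202 ± 11.1 CPM, edgeR adjusted p = 8.56e-06). Cadps2, which primes dense-core vesicles, was 1.88-fold lower (80.5 ± 7.49 against 151 ± 20.3 CPM, edgeR adjusted p = 2.81e-05). Pcsk2 itself was 1.53-fold lower (edgeR adjusted p = 5.41e-05). Pcsk1, Cadps2 and Cadps passed the test of differing effects over time (edgeR adjusted p = 0.00918, 0.0109 and 0.0412). The list's median was 0.06, -0.18, -0.25 and -0.35 at the 4 times. Excitatory neurons express these genes as well.

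Receptors for the peptides and for reelin went in both directions. Of 16, between ipsilateral and contralateral cortex, 0 passed at 3 h, 4 were higher at 6 h, 3 higher and 1 lower at 12 h, and 1 higher and 4 lower at 24 h. Of all genes 5.85% were higher at 6 h. At 12 h 7.94% were higher and 4.3% lower, and at 24 h 9.74% higher and 9.36% lower. The 4 at 6 h, named after their values were seen, were Cckbr (1.14 on the log2 scale, edgeR adjusted p = 7.45e-05), Sstr2 (1.12, adjusted p = 0.00281), Vipr1 (0.95, adjusted p = 0.000487) and the scarce Vipr2 (2.40, adjusted p = 0.0129). Against sham at 6 h, Cckbr (0.70, edgeR adjusted p = 0.0113) and Vipr1 (0.71, adjusted p = 0.00916) passed, and Sstr2 (0.50, adjusted p = 0.199) and Vipr2 (1.64, adjusted p = 0.0893) did not. Contralateral Sstr2 stood at -0.61 from sham (edgeR adjusted p = 0.949). At 24 h Vipr1 was higher than in contralateral cortex (0.57, edgeR adjusted p = 0.0175, and 0.159 against sham), and the somatostatin receptors Sstr4 (-0.40, adjusted p = 0.0281) and Sstr3 (-0.46, adjusted p = 0.0315) were lower. At 6 h the receptor gene Cckbr was thus higher, and its ligand gene Cck lower, in ipsilateral than in contralateral cortex.

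The perineuronal net, a matrix that wraps Pvalb cells, was represented by 11 genes, of which 0, 1, 0 and 3 were higher and 0, 0, 2 and 2 lower in ipsilateral than in contralateral cortex at the 4 times, beside 9.74% of all genes higher and 9.36% lower at 24 h. At 24 h aggrecan, Acan, was higher (0.64, edgeR adjusted p = 0.00931), as was the scarce hyaluronan synthase Has2 (2.94, adjusted p = 0.0117), while the link protein Hapln4 was lower (-0.49, adjusted p = 0.00958). Has2 held 0.0981 ± 0.059 CPM in contralateral 24 h and 0.136 ± 0.0794 CPM in sham cortex (SD, n = 3). Against sham, Acan and Has2 passed as well (edgeR adjusted p = 0.003 and 0.0254) and Hapln4 did not (0.0925). Other cells also make these genes.

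Markers of neurons in general moved with the falls of Lamp5, Cck and Pvalb. Of 15 pan-neuronal genes 0, 4, 4 and 10 fell at 3, 6, 12 and 24 h, with medians of 0.04, -0.17, -0.23 and -0.56, and their summed level at 24 h was 4000 to 4552 CPM in ipsilateral and 5432 to 5923 CPM in contralateral libraries. Of 14 excitatory neuron genes 0, 1, 3 and 8 fell, with a median of -0.50 at 24 h, and Slc17a7, the vesicular glutamate transporter, stood at -0.72 (edgeR adjusted p = 8.57e-05). Of all genes 0.0166%, 2.14%, 4.3% and 9.36% fell at the 4 times. No defining marker of either list was at 0. At 24 h the estimates of Lamp5 (-1.18) and Pvalb (-0.99) lay below both medians, Cck (-0.61) lay near them, and those of Sst (0.02), Npy (-0.05), Slc32a1 (-0.13), Reln (-0.12) and Gad2 (0.25) lay above. Gad1 (-0.21, and -0.39 without ipsilateral replicate 1) and Vip (-0.42, and -0.75 without it) were nearer to the medians but also above them with all libraries. Differences between genes were not tested. The part of neuronal content in the members' results was not tested. Markers of other cells also differed between hemispheres at 24 h, beside 9.74% of all genes higher and 9.36% lower: 3 of 8 infiltrating myeloid genes were higher, 2 of 7 endothelial genes were higher and 1 lower (Pecam1 at 1.06, Cdh5 at 1.42), 1 of 8 microglial genes was higher and 3 lower (Fcrls at 1.62, P2ry12 at -1.06), and 1 of 9 astrocyte genes was higher and 2 lower (Aqp4 at 0.78). Contralateral Aqp4, Fcrls and P2ry12 stood at -0.72, -0.77 and -0.89 from sham (edgeR adjusted p = 0.274, 0.681 and 0.375). Contralateral Pecam1 and Cdh5 stood at 0.13 and 0.15. The summed level of the 8 myeloid genes ran from 10.88 to 57.35 CPM in ipsilateral 24 h libraries. It ran from 7.084 to 14.59 CPM in contralateral 24 h and from 17 to 19.65 CPM in sham libraries.

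**Figure D4:**
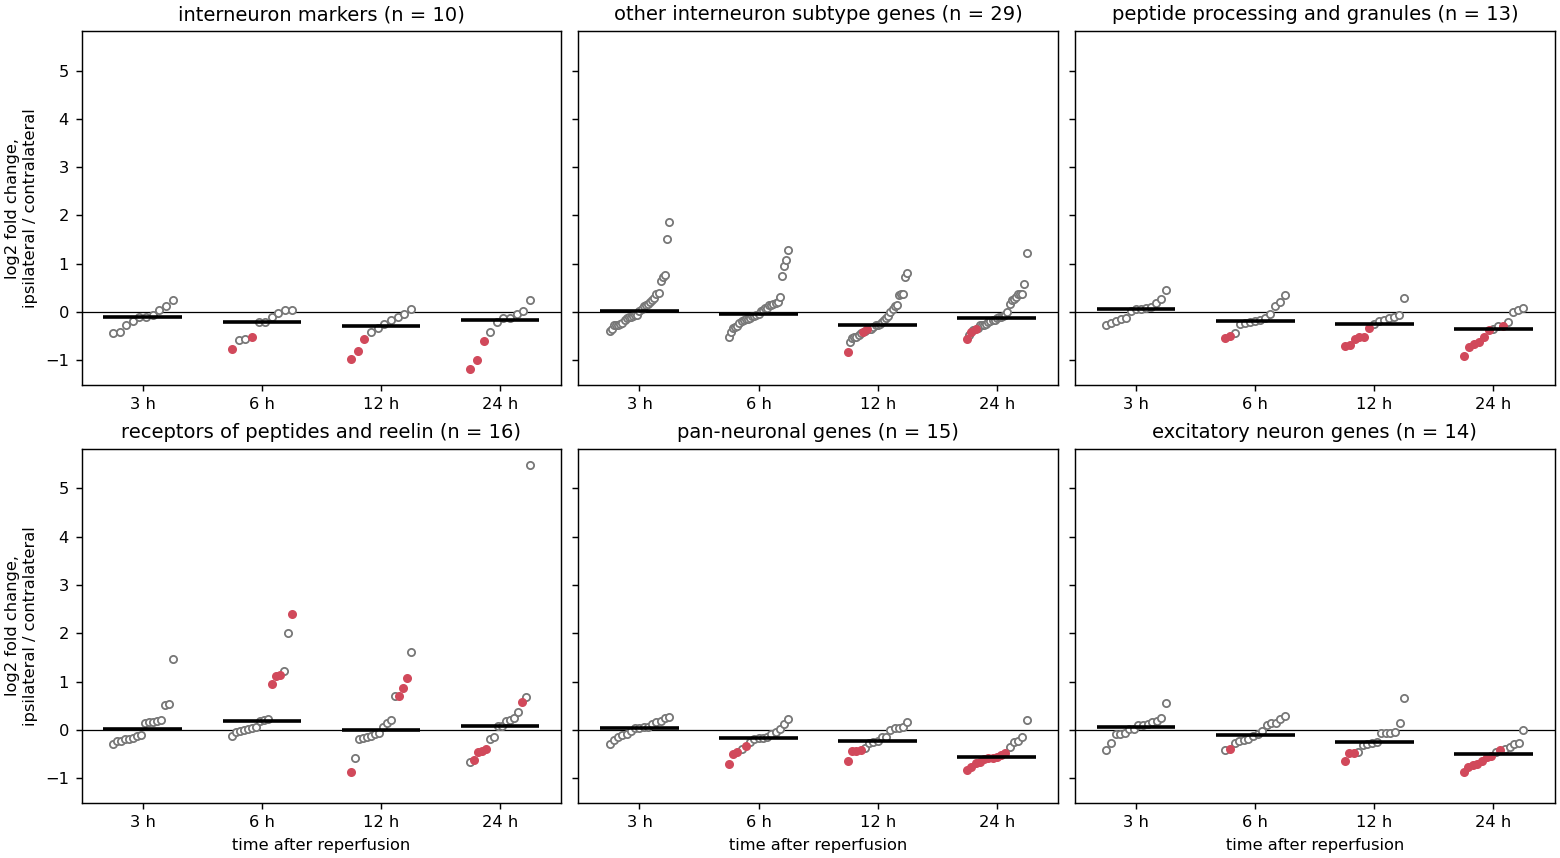
Log2 fold change of ipsilateral against contralateral cortex (vertical axes) at 4 times (horizontal axes) for the 10 interneuron markers and 5 lists; each point is a gene, sorted by value within a time, red points passed an edgeR adjusted p of 0.05 and black bars are medians. At 24 h the median is -0.17 for the 10 markers, -0.35 for peptide processing, -0.56 for pan-neuronal and -0.50 for excitatory genes.

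Across the 27 libraries the 10 genes fell into loose company. On log2 CPM, the Pearson correlation was 0.837 between Cck and Lamp5, 0.705 between Pvalb and Lamp5, 0.7 between Vip and Lamp5 and 0.673 between Cck and Pvalb. Gad1 and Gad2 correlated at 0.632 and Sst and Npy at 0.575. The lowest of the 45 pairs was Gad2 with Cck, at -0.41. The libraries share groups and hemispheres, so these values describe the table and carry no test.

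Among all tested genes outside the 10, those with a pattern most like Lamp5 over the 27 libraries were the potassium channel gene Kcnh5 (r = 0.952), Pcsk2 (0.944) and the sodium channel gene Scn1a (0.943). Genes close to Cck included the sodium-calcium exchanger gene Slc8a2 (0.922) and the calcium pump gene Atp2b2 (0.919). For Pvalb they were Cend1 (0.907), Klhdc3 (0.899) and the synaptic vesicle gene Vamp1 (0.899), and for Vip Cd34 (0.871), Acad8 (0.814) and Npnt (0.808). The nearest genes to Gad2 were Six3os1 (0.859), Gm14204 (0.851) and the choline transporter gene Slc5a7 (0.83). For Gad1 they were Abat, the enzyme that breaks GABA down (0.747), Klhl1 (0.74) and Oard1 (0.735), and for Slc32a1 Cacna2d2 (0.832), Fads6 (0.786) and Gprc5b (0.779). For Reln they were Ntng1 (0.877), Dner (0.852) and Epha6 (0.846). Sst and Npy had the least close companions apart from Gad1: Lmtk3 (0.803), Lrrc16b (0.784) and Grik5 (0.78) for Sst, and Evc (0.777), Adamts10 (0.75) and Sardh (0.746) for Npy.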

How the data were processed

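Total RNA of mouse cortex, depleted of ribosomal RNA, was sequenced in 27 libraries (9 groups of 3). The deposited values are raw counts per gene made by the authors. Per the submitters' processing notes, STAR 2.5.0a, featureCounts 1.4.3-p1 and edgeR (version not given) were used with the mm10 build. The strand setting and the gene annotation of the counting are not given in the sources used. Library totals were 26505996 to 48830897.

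The filterByExpr function (at least 10 counts, and 15 in all) kept 18087 of 22340 rows. The 4253 rows taken out held 0.0116% of the counts. All libraries entered 1 quasi-likelihood fit in edgeR 4.0.16 (R 4.3.3) with TMM normalization, 1 mean per group and no block, which gave 18 residual degrees of freedom. P-values were adjusted by Benjamini-Hochberg over all tested genes, with a threshold of 0.05. CPM use TMM library sizes, RPKM use GENCODE M21 exon unions, correlations use log2 CPM with a prior count of 2, and intervals are 95%. Genes outside the 10 were named by a rule: from each of 19 lists, the 4 smallest p for differing effects over time and the 3 smallest at 24 h among those passing, and the 3 genes most correlated with each member. Some of these are not reported here. The members, lists and rule were chosen with earlier results of these data known. The fits were tested on simulated data.

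Replicate numbers stand for days of surgery in the series' design text, and so pair libraries. The main fit left this pairing out, and fits with a replicate block are given as alternatives. Deviations from group means correlated at a mean of 0.0475 over 108 pairs of libraries with the same number and -0.0237 over 216 pairs with different numbers. Alternatives were DESeq2 1.42.0, DESeq2's size factors, no filter, a replicate block, only the groups compared, and leaving out each replicate. Added after seeing the data were leaving out the 2 libraries with most mitochondrial ribosomal RNA and a striatal marker covariate.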

Additional observations from a re-analysis of the deposited data

Results flagged for a closer look

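The difference of Lamp5 between ipsilateral and contralateral cortex was tested between times, and at 24 h it was lower than at 3 h by -0.77 on the log2 scale (SE 0.19, edgeR adjusted p = 0.0286, 3 libraries per group). All 3 ipsilateral libraries lay below all 3 contralateral ones at both times. The test over all 4 times together gave an edgeR adjusted p of 0.0905. The test for a library far from the others of its group needs 4 or more libraries and was not run, since each group has 3.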

How the results depend on the processing

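Of the log2 fold changes of the 10 genes under all alternatives, 1522 kept their sign and side of the threshold, 44 gained a call, 15 lost one, 119 changed sign without a call under either setting, and no called value changed sign. The lowest count of any of the 10 genes in a library was 614, so depth limited them little; 3 libraries per group limit the precision. Leaving out each library or replicate number gave 1 to 2 genes called between hemispheres at 6 h, 1 to 3 at 12 h and 3 to 5 at 24 h, 1 to 2 against sham at 12 h, and 0 for 24 h minus 3 h in each case. The low values at 12 h came without ipsilateral replicate 1, and the 5 at 24 h without ipsilateral replicate 1 (Gad1 and Vip were added).

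With only the groups compared, 4 genes passed between hemispheres at 6 h and 4 against sham at 6 h. In that setting 5 passed against sham at 12 h (Sst, Cck, Pvalb, Lamp5 and Reln), 1 (Vip) contralateral against sham at 12 h, and 0 for 24 h minus 3 h. DESeq2 called 3 against sham at 6 h, 1 over the 4 times and 2 for 24 h minus 3 h. The replicate block gave 3 against sham at 6 h and 2 for 24 h minus 3 h, and the replicate block within each time 4 between hemispheres at 6 h; beyond the values printed beside Pvalb, Vip, Cck, Lamp5 and Reln, pairing changed no other call of the 10. Without the 2 libraries with most mitochondrial ribosomal RNA, 5 passed between hemispheres at 24 h, 3 and 6 against sham at 6 and 24 h, and 1 over the 4 times. With the striatal covariate 2 passed against sham at 6 h and 2 for 24 h minus 3 h. Counts over all genes moved with the settings too. With only the groups compared, 2117 genes passed against sham at 6 h (1106 in the main fit) and 238 contralateral against sham at 12 h (43). DESeq2 called 763 over the 4 times (242). Without the 2 libraries, 4436 passed against sham at 24 h (4008). With the striatal covariate, 1252 passed for 24 h minus 3 h (600). Other counts of all genes are given below as ranges. The causes were not tested.

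Over all 18087 genes, the calls between hemispheres ranged over the alternatives from 18 to 133 at 3 h (45 as reported), 516 to 2455 at 6 h (1445), 889 to 3468 at 12 h (2214) and 2231 to 3877 at 24 h (3455). Against sham they ranged from 11 to 240 (44), 423 to 2117 (1106), 760 to 3121 (1864) and 2464 to 4436 (4008). Contralateral against sham they ranged from 1 to 34 (2), 0 to 27 (6), 8 to 238 (43) and 1 to 83 (20). Over the 4 times they ranged from 4 to 763 (242) and for 24 h minus 3 h from 0 to 1252 (600). Size factors of DESeq2 shifted the median of all genes by at most 0.016.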
